A study of Mus musculus with 4 samples.

Results

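Genes switched on by the tumour suppressor p53 in cell death and growth arrest were read on arrays of whole mouse embryos with and without Cop1. The members were 10 named p53 targets, Mdm2, Ccng1, Zmat3, Trp53inp1, Phlda3, Bbc3, Pmaip1, Tnfrsf10b, Eda2r and Perp. Every probe set that the platform's annotation gives to 1 of these genes alone was taken, which made 16 of the 45037 probe sets tested, and all 10 genes were among the 18193 genes measured. No filter on low values was applied, so all 16 entered the test.

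The embryos were collected at embryonic day 9.5. RNA of 6 Cop1-null embryos formed 1 pool, and RNA of 6 control embryos formed another. The control embryos were of genotype +/+ or +/-, so their pool may hold heterozygotes, while the sample titles call the control arrays wild-type. Each pool was split into 2 portions, named control pool 1 and 2 and KO pool 1 and 2, with 1 array for each. Arrays of 1 genotype thus share their embryos, every p-value below rests on the spread between portions alone, and no second set of embryos checks the difference between genotypes. The sources used here name neither the mouse strain nor the null allele.

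p53 is a transcription factor that is kept scarce by ubiquitin ligases, chiefly MDM2, and that accumulates after DNA damage and other stress. COP1, the ubiquitin ligase missing from the null embryos, has been reported to mark p53 for degradation as well. Some p53 targets halt the cell cycle, some trigger death through mitochondria or surface receptors, and others, Mdm2 among them, restrain p53 itself. A rise or fall of these transcripts does not measure the amount of p53 protein.

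Facts of the whole series that touch these values are few. The only Cop1 probe set fell from 11.35 and 11.26 to 9.67 and 9.77 (log2; limma, adjusted p = 0.000728), and whether it lies within the deleted stretch is not known here. Across probe sets Pearson's r was 0.998 within both pools and 0.980 to 0.982 between them. Markers of 7 embryonic tissues were all read above the lower quartile of the array on at least 1 array (27 of 27 measured). Of 7 measured trophoblast and decidua markers, 3 lay below that quartile on every array, namely Prl8a2 and Prl3c1 (decidua) and Tpbpa (trophoblast). Cryab, Alpl, Hand1 and Ascl2 did not, and Ascl2 rose (0.64). The summed level of 4 endothelial markers, of which 2 rose, was 9.98 to 10.03 in the control pool and 10.56 to 10.58 in the null pool. That of 6 yolk sac endoderm markers, of which 1 rose and 2 fell, was 12.12 to 12.16 and 11.22 to 11.24. Cubn rose (1.45), Ttr (-1.53) and Afp (-1.01) fell, and Apoa4 (0.38), Amn (0.31) and Rbp4 (-0.11) gave no call. Afp, the brightest of the 6, weighs most in this sum, and their median difference was 0.10. The summed level of 4 gut endoderm markers, of which 2 rose, was 9.39 to 9.496 and 10.01 to 10.02. These 2 were Sox17 (1.23) and Hhex (1.10), while Foxa2 (-0.05) and Foxa1 (0.04) gave no call. The sum of 4 limb bud markers, of which 2 fell, was 10.57 to 10.58 and 9.95 to 10.07, that of 4 somite markers, of which 2 fell, was 10.61 and 10.17 to 10.19, and the part of these lists in the results below was not tested. In bulk RNA, fewer cells of a type and less RNA per cell cannot be told apart.

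The p53 targets did not move as a block. Of the 16 probe sets, 4 rose and 2 fell (limma, Benjamini-Hochberg adjusted p under 0.05 and at least 1.5-fold), where 6.76% of all probe sets rose, 6.96% fell and 13.7% did either. By the adjusted p alone, 8 of the 16 passed, against 32.7% of all probe sets. Counting each gene by its brightest probe set over the 4 arrays, 3 of 10 genes rose, Eda2r, Tnfrsf10b and Bbc3, and 1 fell, Trp53inp1. Over all genes 3.58% rose, 8.06% fell and 11.6% did either. In the control pool alone, the called Tnfrsf10b probe set was not its brighter one. Mdm2 rose on 1 of its 3 probe sets, which was not its brightest. The median difference was 0.05 log2 units over the 16 probe sets and 0.01 over all probe sets, and the differences ranged from -1.43 to 1.17. The 2 pools' values did not overlap for 13 of the 16, against 65.3% of all probe sets. Without the second control portion, Eda2r alone rose among the 10 genes by its brightest probe set. With the arrays centred on their poly-A spikes, Eda2r was again the 1 rise among the member genes and probe sets, and Trp53inp1 still fell.

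**Figure D1:**
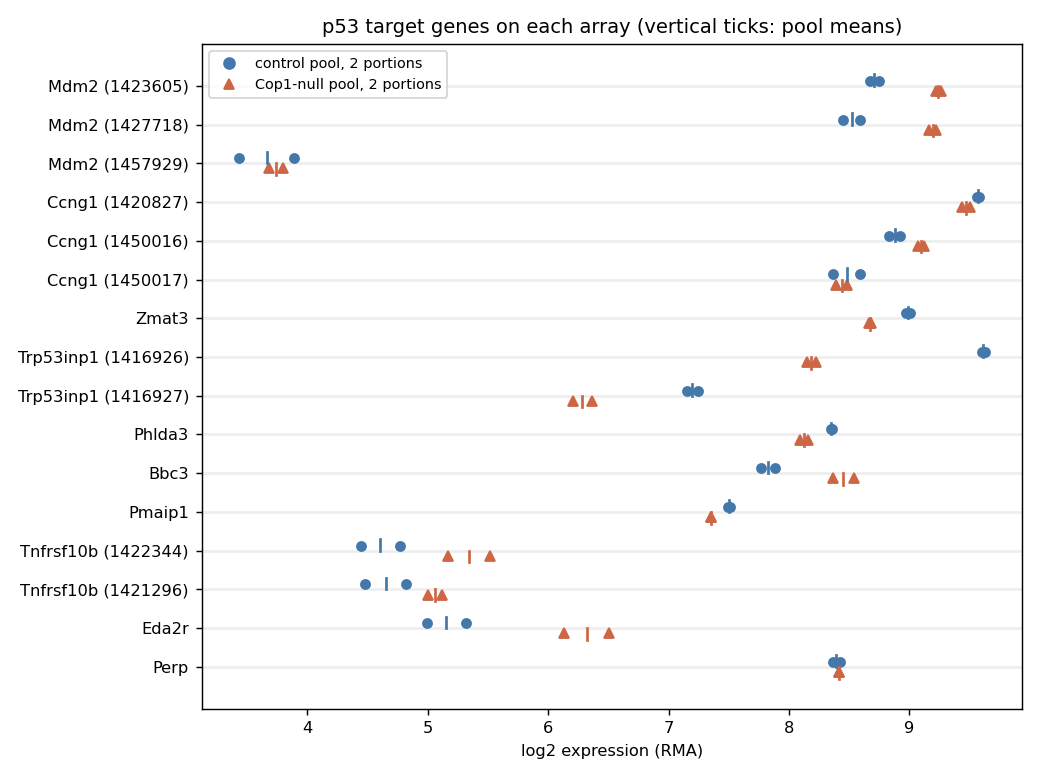
Log2 expression (RMA) of the 16 probe sets of the p53 targets on each of the 4 arrays; circles are the 2 control portions, triangles the 2 null portions and vertical ticks the pool means, and where a gene has several probe sets the number is in brackets. Both Trp53inp1 probe sets lie lower in the null pool, and Eda2r, Bbc3 and the brighter Mdm2 probe sets lie higher.

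The stretch around the start site was read for 5 of the 10 genes (Mdm2, Ccng1, Phlda3, Bbc3 and Eda2r), each window having 250 bases before and 50 after the RefSeq start (GRCm38.p6). They were searched for the p53 half-site consensus, a pattern that is its own reverse complement and so covers both strands, and for a pair of half-sites no more than 13 bases apart with up to 2 mismatches in all and the core C and G of each kept. An exact half-site was found in 2 of the 7 member windows and in 8.36% of all 32851 windows. At least 1 pair was found in 1 member window and in 4.09% of all windows. The windows of Ccng1 (chr11:40755237-40755536, minus strand) and Mdm2 (chr10:117710709-117711008, minus strand) are shown because they held these matches, and that of Eda2r (chrX:97377160-97377459, minus strand) because Eda2r had the largest rise and no match; capitals mark the better of 2 pairs in the Ccng1 window and the half-site in Mdm2.
Ccng1: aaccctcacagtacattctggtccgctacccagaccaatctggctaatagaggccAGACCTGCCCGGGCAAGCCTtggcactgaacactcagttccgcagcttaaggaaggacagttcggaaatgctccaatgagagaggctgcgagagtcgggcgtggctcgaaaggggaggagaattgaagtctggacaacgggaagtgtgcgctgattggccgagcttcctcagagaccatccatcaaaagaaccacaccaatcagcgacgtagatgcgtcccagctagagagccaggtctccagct
Mdm2: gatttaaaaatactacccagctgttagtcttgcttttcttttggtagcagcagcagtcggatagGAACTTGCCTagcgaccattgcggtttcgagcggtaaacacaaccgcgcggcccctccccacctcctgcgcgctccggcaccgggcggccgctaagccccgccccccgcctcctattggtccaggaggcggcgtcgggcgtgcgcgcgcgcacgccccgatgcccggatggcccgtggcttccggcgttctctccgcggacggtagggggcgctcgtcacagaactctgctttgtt
Eda2r: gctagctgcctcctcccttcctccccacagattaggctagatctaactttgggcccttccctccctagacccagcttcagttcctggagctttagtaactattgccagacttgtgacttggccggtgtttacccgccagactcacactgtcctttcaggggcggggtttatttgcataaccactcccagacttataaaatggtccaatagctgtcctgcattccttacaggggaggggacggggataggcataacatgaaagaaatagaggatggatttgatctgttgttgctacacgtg
The marked Ccng1 pair, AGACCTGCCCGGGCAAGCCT, has a spacer of 0 and 1 mismatch and begins at -195 from the start site, and the Mdm2 half-site begins at -186. The windows of Phlda3 and Bbc3, for which 3 start sites are listed, held neither pattern. A match is a description of letters in this window and not a measured site, and other stretches of these genes were not searched.

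Mdm2, which encodes the ubiquitin ligase that p53 induces and that in turn degrades p53, was higher in the null pool on both of its bright probe sets. The called probe set read 8.45 and 8.59 in the control portions and 9.22 and 9.16 in the null portions. It rose 1.59-fold, by 0.67 on the log2 scale (SE 0.08, limma adjusted p = 0.00417), and missed the limits with the poly-A centring (0.42, adjusted p = 0.117). The brightest probe set read 8.67 and 8.75 against 9.22 and 9.26, a difference of 0.53 (SE 0.07, adjusted p = 0.00503) that lay under the fold limit. It passed both limits when quantile normalization was applied once more (0.60, adjusted p = 0.00303), which made 4 risen member genes and 5 risen probe sets, and it passed the test against 1.2-fold (adjusted p = 0.0407). On both probe sets each null portion was above each control portion. The third probe set read 3.43, 3.89, 3.80 and 3.68, below the lower quartile of every array, and its pools overlapped (0.08, 95% interval -0.35 to 0.50).

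Trp53inp1, a stress-induced gene whose protein promotes p53 activity and takes part in autophagy, had the largest difference of all members, and it was a fall. The brighter probe set read 9.60 and 9.63 in the control portions and 8.15 and 8.22 in the null portions. The means were 9.61 ± 0.02 and 8.19 ± 0.05 (SD, n = 2 portions), so that it fell by 1.43 log2 units (SE 0.07), or 2.69-fold (limma, adjusted p = 0.000705). Its other probe set read 7.15 and 7.24 against 6.36 and 6.21 and fell by 0.91 (SE 0.08, adjusted p = 0.00231). The widest gap between portions of a pool was 0.153, in the null pool on the dimmer probe set, and the pools did not overlap on either. Both falls were called under each of the 11 alternatives run for them.

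Ccng1 and Zmat3, the other members tied to arrest and growth control, did not pass both limits. Ccng1 encodes cyclin G1, which brings a phosphatase to MDM2, and it is the member with paired p53 half-sites in the window shown. Its brightest probe set read 9.57 and 9.58 in the control pool and 9.504 and 9.44 in the null pool, a difference of -0.10 (95% interval -0.27 to 0.07). The second read 8.83 and 8.92 against 9.07 and 9.12, without overlap, and differed by 0.22 (interval 0.04 to 0.40, adjusted p = 0.0677). The third read 8.37 and 8.59 against 8.48 and 8.39, with overlap, and differed by -0.04 (interval -0.30 to 0.21). The 3 probe sets of Ccng1 thus did not share a direction, and none of their intervals reached 1.5-fold. Zmat3, which encodes a zinc finger protein that binds RNA, read 9.01 and 8.97 against 8.66 and 8.68. Its pools did not overlap and its difference of -0.31 (SE 0.06, adjusted p = 0.0187) lay under the fold limit, with an interval of -0.47 to -0.15.

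Phlda3, whose small pleckstrin-homology protein restrains the survival kinase AKT, read 8.35 and 8.36 in the control portions and 8.09 and 8.16 in the null portions. The difference of -0.23 (SE 0.06) had an adjusted p of 0.0528 (limma), and its interval of -0.40 to -0.06 did not reach 1.5-fold. Perp, which encodes a membrane protein of desmosomes and of p53-dependent death, read 8.42 and 8.36 against 8.42 and 8.42. Its pools overlapped, and the interval of its difference, -0.14 to 0.19, reached at most 1.14-fold. That interval rests on the spread between portions, and the difference was -0.23 with the arrays centred on their poly-A spikes. Of 6 surface ectoderm markers, the tissue in which Perp is best known, Krt8 (0.78) and Krt18 (0.87) rose and Krt14 fell (-1.01). Epcam (-0.07), Trp63 (0.11) and Krt5 (-0.12) gave no call, and the median difference of the 6 was 0.02. Their summed level, in which the bright Krt8 and Krt18 weigh most, was 11.23 to 11.27 in the control pool and 11.82 in both null portions.

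Bbc3 and Pmaip1 encode PUMA and NOXA, BH3-only proteins that neutralise the survival members of the BCL2 family at mitochondria, and only the former passed the test. Bbc3 read 7.89 and 7.77 against 8.54 and 8.36, so that both null portions lay above both control portions. It rose by 0.63 log2 units (SE 0.09), or 1.54-fold (limma, adjusted p = 0.00787), just past the fold limit. Pmaip1 read 7.49 and 7.51 against 7.35 and 7.35, a difference of -0.15 (95% interval -0.31 to 0.01, adjusted p = 0.132). Whether the 2 genes differ in their change was not tested. The rise of Bbc3 missed the limits without the second control portion (0.57, adjusted p = 0.057), without the first null portion (0.54, adjusted p = 0.0445) and with the arrays centred on their medians (0.56, adjusted p = 0.0101) or spikes (0.37, adjusted p = 0.174), its adjusted p ranging from 0.000313 to 0.174 over the alternatives.

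Among 6 other BH3-only genes, 0 rose and 2 fell (limma; at an unadjusted p under 0.05, 1 was higher and 4 were lower). Over all genes 3.58% rose and 8.06% fell, and at the unadjusted p 16.8% were higher and 27.5% lower. Bad, which is held inactive by survival kinases, read 8.26 in both control portions and 7.47 in both null portions. It fell by 0.79 (SE 0.06, limma adjusted p = 0.00157), as did its other probe set. Bmf, a BH3-only gene whose protein is tied to the cytoskeleton, fell by 0.94 (SE 0.12, limma adjusted p = 0.00493) on its brightest probe set. The other Bmf probe sets gave no call.

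The receptor genes Eda2r and Tnfrsf10b rose. Eda2r, which encodes the receptor of the A2 form of ectodysplasin, read 5.32 and 4.99 in the control portions and 6.14 and 6.50 in the null portions. Its means were 5.15 ± 0.23 and 6.32 ± 0.26 (SD, n = 2 portions), a rise of 1.17 log2 units (SE 0.17) or 2.24-fold (limma, adjusted p = 0.00774). Both null portions were above both control portions, and the gap between portions of 1 pool was 0.32 and 0.37. The rise was called under each of the 11 alternatives, with values of 0.91 to 1.35. Eda2r is X-linked, and the pools also differed in Xist, the RNA of the inactive X chromosome, which rose (0.94). The Y-linked genes Kdm5d (0.83) and Eif2s3y (0.76) rose as well. The part of the embryos' sexes in the Eda2r value was not tested.

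Tnfrsf10b encodes the mouse receptor of the death ligand TRAIL. The brighter probe set, whose suffix marks probes that can match transcripts of more than 1 gene, read 4.44 and 4.77 against 5.17 and 5.51. It rose by 0.73 log2 units (SE 0.16), or 1.66-fold (limma, adjusted p = 0.0269). The other probe set read 4.82 and 4.48 against 5.00 and 5.12 and differed by 0.41 (SE 0.13, limma adjusted p = 0.072). In the control pool this other probe set was the brighter (mean 4.65 against 4.61). The choice of the called one as the brighter thus rests on the null portions. Both probe sets lay below the median of every array, and on both the null portions were above the control portions without overlap. The call was lost without either control portion or the second null portion, with the spikes, and when tested against 1.2-fold, its adjusted p ranging from 0.00688 to 0.118 over the alternatives.

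Of 5 other death receptor genes (Tnfrsf1a, Tnfrsf21, Tnfrsf25, Ngfr and Edar), 0 rose and 0 fell (limma; at an unadjusted p under 0.05, 1 was higher and 1 lower), beside 3.58% and 8.06% of all genes called and 16.8% and 27.5% at the unadjusted p. The genes of the ligands, Tnfsf10 for TRAIL, Eda for ectodysplasin and Fasl for the FAS ligand, gave 0 calls as well (0 at an unadjusted p under 0.05). Eda differed by -0.17 and Tnfsf10 by 0.11.

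**Figure D2:**
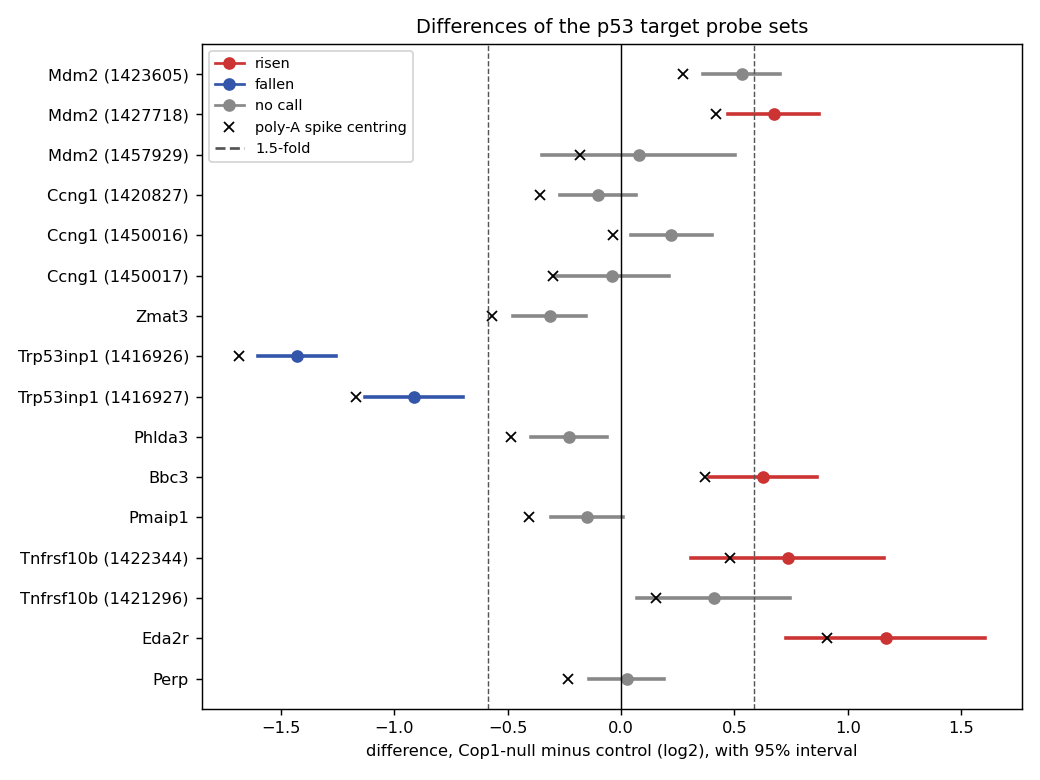
Difference between the null and the control pool for each p53 target probe set (log2), with the 95% interval from limma, coloured by call; dashed lines mark 1.5-fold and crosses the value after centring on the poly-A spikes. The intervals of 8 of the 16 probe sets lie within 1.5-fold either way.

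Both the size and the precision of the differences varied between members, and whether an interval lay within 1.5-fold depends on both. For 8 of the 16 probe sets the whole 95% interval lay within 1.5-fold, which was so for 71.4% of all probe sets. These were the 3 of Ccng1, the dim one of Mdm2, and those of Zmat3, Phlda3, Pmaip1 and Perp. The SE ranged from 0.06 for Pmaip1 to 0.17 for Eda2r, and Eda2r, Tnfrsf10b and the dim Mdm2 probe set had the largest.

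**Figure D3:**
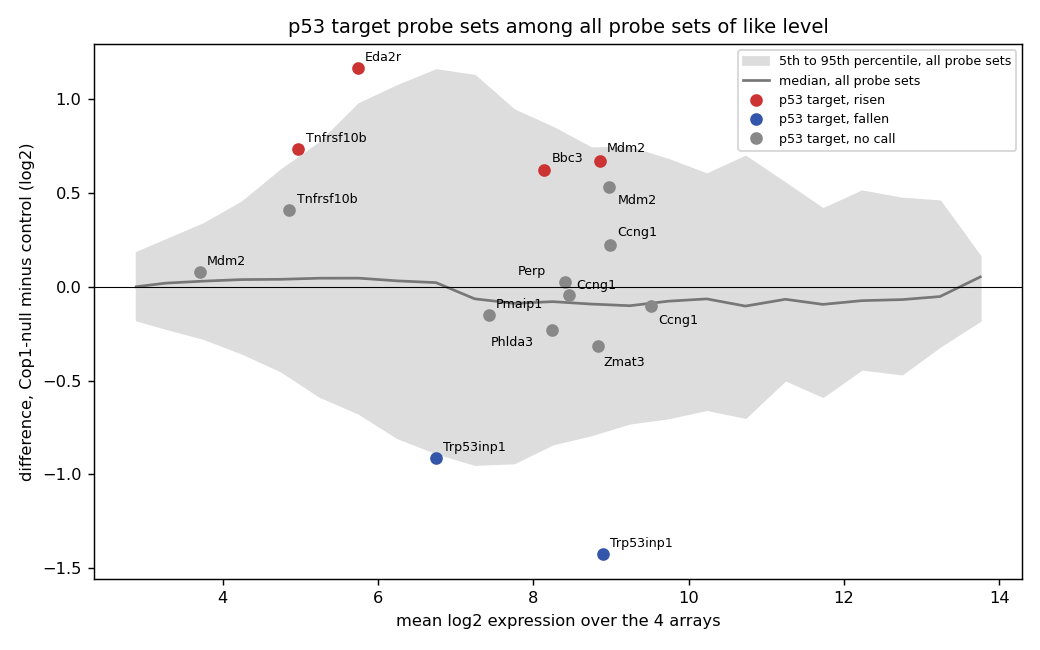
Mean log2 expression over the 4 arrays against the difference between pools (log2) for the p53 target probe sets, over the 5th to 95th percentile (grey) and median (line) of all probe sets in steps of level. Eda2r (1.17), the brighter Tnfrsf10b probe set (0.73) and both Trp53inp1 probe sets (-1.43 and -0.91) lie outside the grey band.

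The wider p53 pathway was also mixed. Of 44 further genes listed, 39 were measured, and 5 rose and 4 fell, where 3.58% of all genes rose and 8.06% fell. Their median difference was -0.01 against -0.02 over all genes, and with the poly-A centring 0 rose and 10 fell; Trp53 itself, Bax, Gls2, Gdf15 and Fdxr were not analysed here. Among 13 regulators of p53, 0 rose and 2 fell (limma; at an unadjusted p under 0.05, 4 were higher and 4 lower, beside 16.8% and 27.5% of all genes). Ppm1d, a p53-induced phosphatase that damps the p53 response, read 8.97 in both control portions and 7.97 and 8.05 in the null portions, and fell by 0.96 (SE 0.07, adjusted p = 0.00129), as did its other probe set. Hipk2, a kinase of p53, fell by 0.81 on its brightest probe set (adjusted p = 0.00192), while 2 of its other probe sets rose. Mdm4, an inhibitor of p53 related to Mdm2, read 8.25 and 8.27 against 8.72 and 8.73 (0.46, adjusted p = 0.00594), under the fold limit, and 1 of its 3 other probe sets rose. Atr, a kinase of the DNA damage response, differed by 0.51 (adjusted p = 0.00462) on its brightest probe set, under the fold limit, and its 2 other probe sets rose by 1.32 and 1.28.

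Of the other p53 targets, those of arrest gave 3 rises and 0 falls among 9 (limma; at an unadjusted p under 0.05, 4 were higher and 3 lower). Over all genes these shares were 3.58% and 8.06%, and 16.8% and 27.5%. Cdkn1a, which encodes the CDK inhibitor p21, read 8.10 and 8.07 against 8.74 and 8.73 and rose by 0.65 (SE 0.06, adjusted p = 0.0025); its second probe set differed by 0.52, under the fold limit. Plk2, a kinase gene, rose by 0.71 (limma adjusted p = 0.00266) on its brighter probe set, while its dimmer one gave no call. Gadd45a, a growth arrest gene of the DNA damage response, rose by 0.61 (limma adjusted p = 0.00635). Gadd45a lay under the fold limit without the first control portion (0.53, adjusted p = 0.0411) or the first null portion (0.57, adjusted p = 0.0476), and with median centring (0.54, adjusted p = 0.00805). Targets of death gave 0 rises and 0 falls among 6 (limma; at an unadjusted p under 0.05, 0 were higher and 2 lower), with a median of -0.17 against -0.02 over all genes, of which 3.58% rose and 8.06% fell. Other probe sets of these genes were called. Aen, a nuclease gene, differed by -0.47 on its brightest probe set, and 2 of its 3 others fell by 0.72 and 0.63. Among the arrest genes, Btg2, an antiproliferative gene, differed by 0.04 on its brightest probe set and its other one fell by 0.77.

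Targets of repair and metabolism gave 2 rises and 2 falls among 11, beside 3.58% and 8.06% of all genes. Polk, which encodes a polymerase that copies past DNA lesions, rose by 0.70 (SE 0.06, limma adjusted p = 0.00218) on its brighter probe set. The dimmer Polk probe set differed by 0.20 (adjusted p = 0.163), with no call. Sesn2, an inhibitor of mTORC1 signalling that ATF4 also induces, rose by 0.65 (SE 0.08, limma adjusted p = 0.00475) on its brighter probe set. That value lay under the fold limit without the second null portion (0.58). The dimmer Sesn2 probe set rose by 1.27 (SE 0.12, adjusted p = 0.00245). Tigar, which lowers glycolytic flux, fell by 1.36 (SE 0.08, adjusted p = 0.000973) on its brightest probe set, while the others differed by -0.31 and -0.42 with no call. Ak1, an adenylate kinase gene, fell by 0.98 (SE 0.08, limma adjusted p = 0.00161) on its brighter probe set. The dimmer Ak1 probe set differed by 0.16, with no call.

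**Figure D4:**
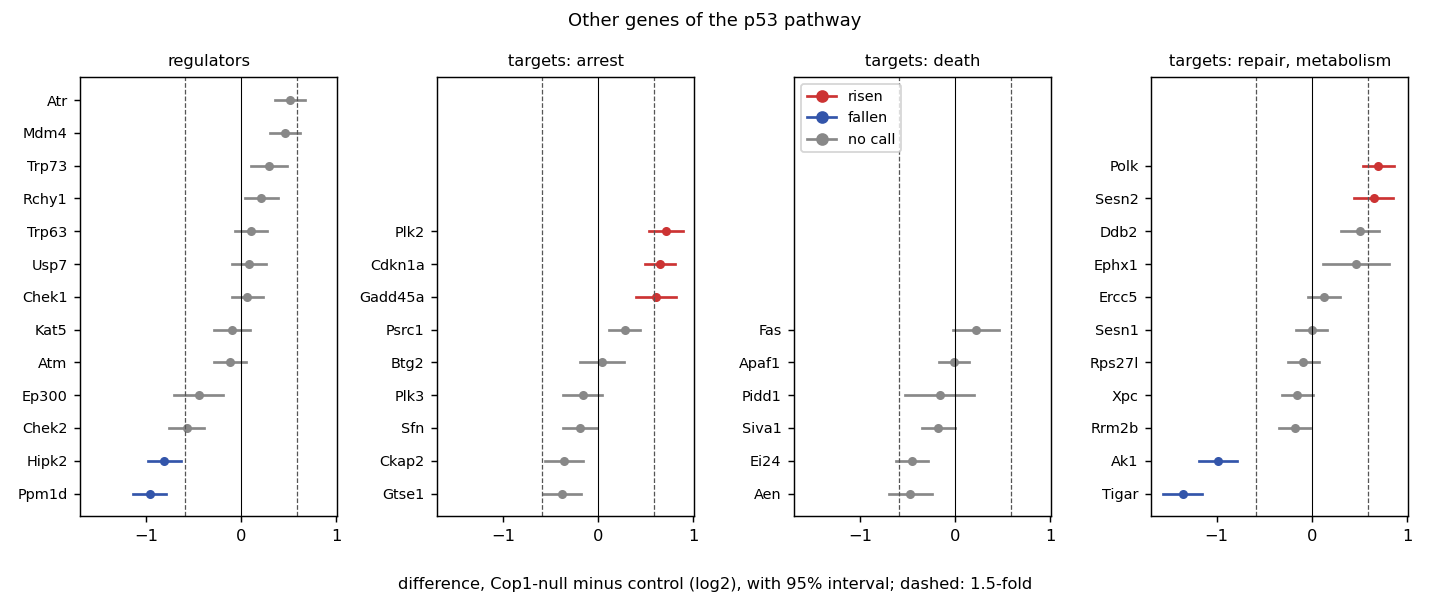
Difference between the null and the control pool (log2) with its 95% interval for 39 other genes of the p53 pathway, 1 probe set a gene, in 4 panels by role; dashed lines mark 1.5-fold. The 5 rises are targets of arrest or of repair and metabolism. Of the 6 targets of death, 0 rose and 0 fell by the probe sets shown, beside 3.58% and 8.06% of all genes. Among probe sets not shown, 2 of the death target Aen fell.

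Close relatives of the members that are not in these lists were read beside them. Trp53inp2, the relative of Trp53inp1, read 9.39 and 9.31 in the control portions and 7.95 and 7.78 in the null portions. It fell by 1.49 (SE 0.09, limma adjusted p = 0.000947) on this brighter probe set, and its other one gave no call. Ccng2, the relative of Ccng1, read 10.01 and 10.04 against 10.97 and 10.98. It rose by 0.95 (SE 0.06, limma adjusted p = 0.00111), as did its other probe set. Phlda1 and Phlda2, the relatives of Phlda3, differed by 0.04 and -0.10, and the 4 other Zmat genes gave no call. In all 22 relatives, death receptors, ligands and BH3-only genes included, 1 rose and 3 fell, beside 3.58% and 8.06% of all genes, with a median of -0.14 against -0.02.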

How the data were processed

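RNA of 4 portions of 2 pools was hybridised to Affymetrix arrays. The deposited values are log2 expression per probe set, computed by the authors with RMA (affy, an R package; its version is not given), per the submitters' processing notes. RMA equalises the arrays, and a difference in RNA amount per embryo cannot be read from them. The values were used as deposited. Of 45101 probe sets, 64 controls were left out. The platform's annotation gave 34945 of the 45037 tested probe sets 1 gene, 932 several and 9160 none. A gene was represented by its probe set of highest mean over the 4 arrays, those of the null pool included.

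Differences, null minus control, went through limma 3.58.1 under R 4.3.3 (lmFit, eBayes, two-sided, Benjamini-Hochberg over all probe sets), and checked on simulated data. Intervals are limma's at 95%. Depth does not apply to arrays, and their number limits the precision. Named are all member probe sets, Cop1, Mdm4, Cdkn1a, and the called genes of each list, up to 4 a role. Atr, Aen and Btg2 were named outside this rule, for called probe sets other than their brightest. The BH3-only gene Bcl2l11, with 1 such fall, is not described above. Members and lists were chosen with earlier results of these data known. Marker sums are log2 of summed linear values. Alternatives were each array left out, other scalings, a filter on dim probe sets, the replicate number as a block, a variance trend, other limits and mean probe sets.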

Additional observations from a re-analysis of the deposited data

Results flagged for a closer look

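The control probe sets of 18S ribosomal RNA, which enter no comparison above, read higher in the null pool than in the control pool. The 3 prime probe set gave 11.79 and 11.81 for the control portions against 13.03 and 13.12 for the null portions, a difference of 1.27 log2 units. The 5 prime probe set differed by 1.12 and the middle one by 1.66. All null portions lay above all control portions on the 3 probe sets. Their part in the values of the p53 targets was not tested. The 3 prime minus 5 prime difference of beta-actin was 0.14 to 0.19 in the control pool and 0.14 to 0.16 in the null pool, and that of the transferrin receptor was 1.31 to 1.52 and 1.72 to 1.92.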

How the results depend on the processing

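The falls of Trp53inp1 and the rise of Eda2r were called under every alternative run. Centring on the poly-A spikes, whose medians were 7.23 and 7.49 on the control and 7.52 and 7.71 on the null arrays, moved the median of all probe sets from 0.01 to -0.25. It left 1 rise (Eda2r) among the member probe sets and genes, 0 rises and 10 falls among the other p53 pathway genes, 6 falls among the relatives, and 339 rises and 3441 falls among all genes, where 652 and 1467 were called without it. With the adjusted p alone and no fold limit, 4 member genes rose and 2 fell, and 5 member probe sets rose and 3 fell. By that limit 10 other pathway genes rose and 10 fell, 1 relative rose and 5 fell, and 2192 genes rose and 3973 fell. With the mean of all probe sets of a gene, 4 other pathway genes rose and 2 fell. With quantile normalization once more, 5 member probe sets and 4 member genes rose, the added one being the brightest Mdm2 probe set. Leaving out 1 array at a time gave 2 to 3 rising member probe sets and 1 to 2 rising member genes. Values near 0 changed sign without a call: the dim Mdm2 probe set to -0.18, the second Ccng1 probe set to -0.035 and Perp to -0.23 with the spikes, Perp to -0.039 with median centring, and the third Ccng1 probe set to 0.020 with quantile normalization once more. Leaving out 1 array at a time, the dim Mdm2 probe set ranged from -0.15 to 0.31, the third Ccng1 probe set from -0.15 to 0.069, and Perp from -0.0052 to 0.053. The cause was not tested. The labels give no link between same-numbered portions, whose deviations correlated at 0.06. With the replicate number as a block 4 member probe sets rose and 2 fell, as without it.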

Other observations

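Among the p53 regulators, 2 genes had probe sets called in both directions, Usp7 and Hipk2, and were picked out after their values were seen. Usp7 encodes a deubiquitinase that stabilises MDM2 and p53. Its brightest probe set had means of 10.46 (control) and 10.54 (null; 0.08, limma adjusted p = 0.448). Of its 6 other probe sets, 1 rose from 7.65 to 9.49 (1.84, SE 0.07) and 1 fell from 7.06 to 6.27 (-0.79, SE 0.07). Of the 8 Hipk2 probe sets, 2 rose, from 6.45 to 7.84 and from 7.42 to 8.16, while 2 fell, from 11.31 to 10.504 and from 9.74 to 8.98. Which transcripts these probe sets read was not tested.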
